A study of Mus musculus with 9 samples.

Results

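Long intergenic noncoding RNAs (lincRNAs) are spliced or single-exon transcripts that carry no long open reading frame and are annotated as lying between coding genes, although some rows of this biotype overlap a coding gene. Several of them act in the nucleus, some carry microRNAs or small nucleolar RNAs in their introns or exons, and many are transcribed beside a coding gene. Those of known function in myeloid cells include Mir155hg, the primary transcript of miR-155, which is induced when DCs mature, and AW112010, an interferon-inducible transcript of immune cells. Most of the others described here have no assigned function.

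The 119 lincRNAs were selected on their level: rows of the deposited FPKM table with the biotype lincRNA and at least 2 FPKM in at least 3 of the 9 libraries, out of 5559 lincRNA rows and 54532 rows in all. FPKM is the number of reads on a gene per kilobase of its length, scaled to the size of the library. The libraries were made from CD11c-enriched and sorted spleen cells of female mice aged 6 to 8 weeks, with 3 libraries per group. N-mDCs were mature conventional DCs of healthy mice without leukemia. T-DCs (CD11c+MHCIIlo) and T-mDCs (mature conventional DCs) came from mice on day 15 after transfer of GFP+ T-ALL cells, which carried the retroviral intracellular domain of Notch1 (ICN1), into recipients that were not irradiated. The recipients were C57BL/6J or C57B6.SJL mice, and which strain gave which library is not stated. T-DCs were gated on low surface MHCII, so genes of that locus were part of how the group was defined. The labels say neither whether the 3 libraries of a group came from separate mice nor whether T-DC and T-mDC libraries came from the same mice, so p-values measure the spread between these libraries.

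Of the 119, 39 reached 2 FPKM in every library, 63 in 4 to 8 and 17 in exactly 3. Through the 3 N-mDC libraries alone 2 members passed, and 2 through the 3 T-mDC libraries alone, and such members had to differ between groups. Further members, among them Gm34084, Ptgs2os2, Gm20506 and Gm47922, were under 2 FPKM in every T-DC library. They passed only through N-mDC and T-mDC libraries, so part of a lower T-DC level was built into their choice. Just inside the threshold was 1810012K08Rik, whose lowest value among the 3 libraries that carried it was 2.02 FPKM, and just outside was 4833418N02Rik at 1.99 FPKM. The members held 0.212% to 0.308% of the 15360815 to 18440913 reads on genes per library, and 79.2% to 85.5% of all lincRNA reads. The number of members at 2 FPKM or more was 85 to 98 in N-mDC libraries, 61 to 71 in T-DC libraries and 78 to 100 in T-mDC libraries.

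Libraries of a group were not alike in their makeup. The summed FPKM of 10 DC markers was 7525 to 10430 in N-mDCs, 4885 to 7185 in T-mDCs and 387 to 1573 in T-DCs, but H2-Aa and H2-Ab1, genes of the gated locus, made up 52% to 92.9% of it. The other 8 DC markers summed to 641 to 748 in N-mDCs and 715 to 798 in T-mDCs. In T-DC 1 to 3 they summed to 704, 332 and 186. The sum of T-DC 1 lay within the range of the mature DC libraries, but Sirpa made up 404 of it, against 124.5 to 244 in those libraries. Each other marker of the 8 was lower in T-DC 1 than in every mature DC library, such as Flt3 at 15.4 against 44.4 to 89.1. B cell marker sums (5 genes) were 208 to 283 in N-mDCs and 31.2 to 180 in the libraries of leukemic mice, and NK cell marker sums (5 genes) were 46.4 to 138 and 1.30 to 27.2. Plasmacytoid DC (pDC) marker sums (4 genes) were 265.6 to 588.1 in N-mDCs and 60.85 to 174.4 in the libraries of leukemic mice. Sums for T-lineage cells (10 genes) and plasma cells (4 genes) overlapped between healthy and leukemic mice. The summed FPKM of 8 erythroid markers was 607, 58100 and 42450 in T-DC 1 to 3, against 99.4 to 5359 in N-mDCs and 15.1 to 180 in T-mDCs. T-DC 2 and 3 were also highest for 5 cell cycle genes (544 and 490, against at most 113 elsewhere) and for 7 neutrophil markers (4184 and 1471, against at most 654). Monocyte marker sums (4 genes) were 631, 323 and 212 in T-DC 1 to 3, 237.5 to 418 in N-mDCs and 71.2 to 222 in T-mDCs. Sums of 5 red pulp macrophage markers were 1503, 493 and 273 in T-DC 1 to 3, 1131 to 1774 in N-mDCs and 155 to 709 in T-mDCs. T-mDC 2 and 3 were the most similar pair, with a chi-square per gene of 1.85 against 8.11 to 36.1 for the other pairs within groups. In bulk RNA, fewer cells of a type and less RNA per cell cannot be told apart.

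The sequences below are those that the lincRNA results turn on: first the mature microRNAs carried by 3 members, found by their coordinates inside the member and on its strand, then stretches of promoters. Mature microRNAs are from RefSeq (GRCm38.p6), with the seed, bases 2 to 8, in capitals. Mir142hg (chromosome 11, 87755577 to 87757270, plus strand) and Mir155hg (chromosome 16, 84703167 to 84715245, plus strand) each carried a single hairpin, and their 4 mature products had 4 different seeds.
mmu-miR-142a-5p: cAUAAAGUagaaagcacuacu
mmu-miR-142a-3p: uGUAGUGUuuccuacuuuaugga
mmu-miR-155-5p: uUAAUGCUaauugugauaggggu
mmu-miR-155-3p: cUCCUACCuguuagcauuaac

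Mir17hg (chromosome 14, 115042879 to 115046727, plus strand) carried 6 hairpins, and its products below share seeds in pairs: AAAGUGC in miR-17-5p and miR-20a-5p, and GUGCAAA in miR-19a-3p and miR-19b-3p.
mmu-miR-17-5p: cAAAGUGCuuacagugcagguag
mmu-miR-20a-5p: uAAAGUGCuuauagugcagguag
mmu-miR-19a-3p: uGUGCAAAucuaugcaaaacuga
mmu-miR-19b-3p: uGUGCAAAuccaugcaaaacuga

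RefSeq held a promoter window, 250 bases before to 50 after a transcript start, for 67 of the 119 members. The window nearest to the member's annotated 5′ end was used, and for 41 members it lay within 100 bases of that end. Each window was searched on both strands for 7 motifs, which may overlap each other. The 9-base pattern GAAANNGAA, used here for the interferon response motif, was found in 13 of the 67 windows (19.4%), against 8.56% of all 32851 RefSeq windows. Among the members with a window it was found in 6 of the 18 that were lower in T-DCs than N-mDCs, in 1 of the 3 that were higher in T-DCs than in another group, and in 7 of the 12 that were lower in T-DCs than in T-mDCs, of which 3 had the window within 100 bases of their 5′ end. The matches of these last 7 are given with 10 bases on each side, read on the strand of the match, with the 9 matched bases in capitals. Those of Gpr141b and Ptgs2os2 were the same over the matched bases and lay 12 and 72 bases before the start.
Gpr141b: cgttgggagtGAAAACGAAaatctctgtt
Ptgs2os2: ttcatcatttGAAAACGAAaacgcacttg
Gm31718: caactaaaaaGAAAAAGAAacaaacaaac
Mir155hg: ttaaaggataGAAACAGAActtatagata
1700009J07Rik: tgcagaggcaGAAAGGGAAgcatggatcc
Gm46224: tgtaacattgGAAACAGAAagttggctta
Gm36723: atagaaagggGAAAGTGAActggctacca

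For Gm31718, Mir155hg, Gm46224 and Gm36723 the RefSeq start lay 54967, 9856, 1417 and 51961 bases from the annotated 5′ end of the row, so those windows belong to other transcripts of the same gene. The remaining motifs were found in 9 windows of members for the GATA motif AGATAA (13.4%, against 11.2% of all windows), 5 for the AP-1 motif TGANTCA (7.46% against 7.81%), 4 for the E-box CACGTG (5.97% against 7.15%), 2 for the cyclic AMP response element TGACGTCA (2.99% against 1.79%), 1 for the ETS motif CCGGAAGT (1.49% against 3.89%) and 0 for the kappaB motif GGGANTTTC (against 1.11%). A match is a description of the letters, and no count here was tested. The window of Gm14321, which was higher in T-DCs than in both other groups, held the full cyclic AMP response element 17 bases before its start and the GATA motif on the minus strand, both in capitals (GRCm38.p6, chr2:167777241-167777540, plus strand).
Gm14321: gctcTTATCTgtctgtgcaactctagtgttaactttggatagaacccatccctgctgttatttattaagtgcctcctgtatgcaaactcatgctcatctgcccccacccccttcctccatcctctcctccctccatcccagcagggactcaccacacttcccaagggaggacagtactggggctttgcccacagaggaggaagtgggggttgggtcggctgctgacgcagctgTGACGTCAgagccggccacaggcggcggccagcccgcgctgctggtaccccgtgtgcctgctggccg

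The levels spanned a wide range, with a median of the member means of 2.88 FPKM. A mean of 10 FPKM or more was reached by 25 members, while 62 had a mean under 3 FPKM. The 5 highest, AW112010, Gm10076, Malat1, Mir142hg and Epb41l4aos, held 22.5% to 37.6% of the summed member FPKM of a library. AW112010 (chromosome 19, 11047617 to 11050566) was measured at 170, 190 and 130 FPKM in N-mDCs, 113, 88.4 and 36.5 in T-DCs and 86.5, 72.4 and 70.3 in T-mDCs. Its N-mDC libraries lay above all libraries from leukemic mice, but neither difference passed the test over all genes (T-DCs against N-mDCs, log2 fold change -1.16, standard error 0.38, limma adjusted p = 0.0687; T-mDCs against N-mDCs, -1.08, adjusted p = 0.201).

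Gm10076 (chromosome 14, 105681828 to 105682211) is a single-exon row, and 99.7% of its length matched the ribosomal protein gene Rpl41 at 99.3% identity, so its reads may belong to that gene. It was at 29.3 to 58.9 FPKM in N-mDCs, 68.0, 40.5 and 184 in T-DCs and 29.6 to 73.4 among T-mDCs, and the groups overlapped. In all, 6 members had a copy of at least 95% identity over more than 50% of their length. Gm26917, listed here among annotations over ribosomal RNA repeats, was at 135 FPKM in T-DC 3 and at 8.72 to 22.6 FPKM in the other 8 libraries.

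**Figure D1:**
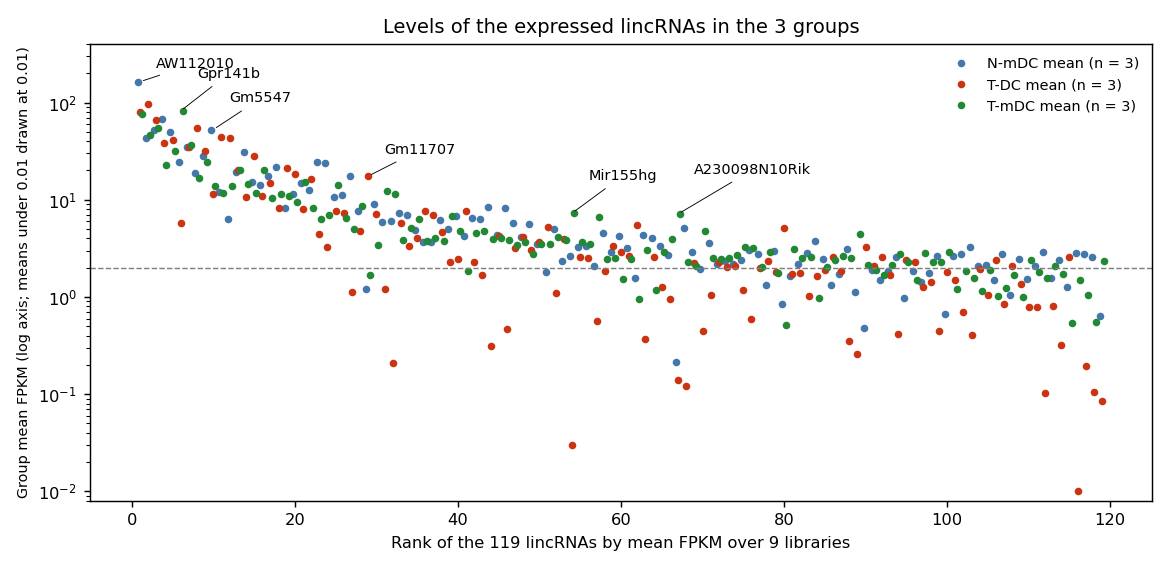
Group means (n = 3 libraries each) of the 119 lincRNAs in order of their mean FPKM over 9 libraries, on a log axis, with the 2 FPKM threshold dashed. A mean of 0, that of Gm12159 in T-DCs, is drawn at 0.01, and the lowest points below the threshold are mostly T-DC means.

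The comparison of all 3 groups asked which lincRNAs differ at all. It called 41 of the 119 members (34.5%), against 18% of the 12746 genes tested (limma F-test on log2(FPKM + 1), Benjamini-Hochberg adjusted p under 0.05). A further contrast asked how T-DCs differ from healthy mature DCs. T-DCs expressed lower levels of 30 members and higher levels of 5 than N-mDCs, that is 25.2% and 4.2% of the members, against 10.3% lower and 6.1% higher over all genes tested. The median log2 fold change was -0.42 over the members and 0.05 over all genes. Against T-mDCs, T-DCs expressed lower levels of 20 members (16.8%) and higher levels of 6 (5.04%), against 8.79% and 5.44% of all genes. The medians were -0.32 and 0.07. T-mDCs expressed lower levels of 5 members (4.2%) and higher levels of 2 (1.68%) than N-mDCs, against 1.52% and 0.69% of all genes, with medians of -0.15 and 0.03. Fold changes here and below are differences in mean log2(FPKM + 1), which understate the change of low genes. The 2 T-DC comparisons share the T-DC libraries. In them, 13 members were lower and 3 higher against both other groups, 17 lower and 2 higher against N-mDCs alone, and 7 lower and 3 higher against T-mDCs alone. No member was called in opposite directions. Of the members lower than in T-mDCs, all but Gpr141b and 2310031A07Rik were under 2 FPKM in every T-DC library. Most of those lower than in N-mDCs were so too. They had passed the level threshold only through the other groups, so part of the excess of lower calls over all genes was built into their choice.

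Among the 39 members at 2 FPKM or more in every library, which no single group could have carried over the threshold, 8 were lower (20.5%) and 2 higher (5.13%) in T-DCs than N-mDCs. Against T-mDCs, 1 of them was lower (2.56%, under the share of all genes) and 3 were higher (7.69%). The counts moved with T-DC 1, the T-DC library with the lowest erythroid sum and the highest monocyte and red pulp macrophage sums. Without it, T-DCs differed from N-mDCs in 60 members (47 lower) and from T-mDCs in 50 (36 lower), and T-mDCs from N-mDCs in 20, which is 50.4%, 42% and 16.8% of the members against 39.5%, 35.1% and 8.02% of all genes in the same fit. With T-DC 1 as the only T-DC library, a fit added after the data were seen, the counts were 10 (9 lower), 11 (8 lower) and 18, or 8.4%, 9.24% and 15.1% of the members against 5.85%, 5.81% and 6.66% of all genes. Rescaling to TPM moved the median of all genes to -0.23 for T-DCs against T-mDCs and to 0.23 for T-mDCs against N-mDCs. The share of higher calls among the members then was 10.7% against 23.1% in FPKM for T-DCs against T-mDCs, and 1 member was called between T-mDCs and N-mDCs.

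**Figure D2:**
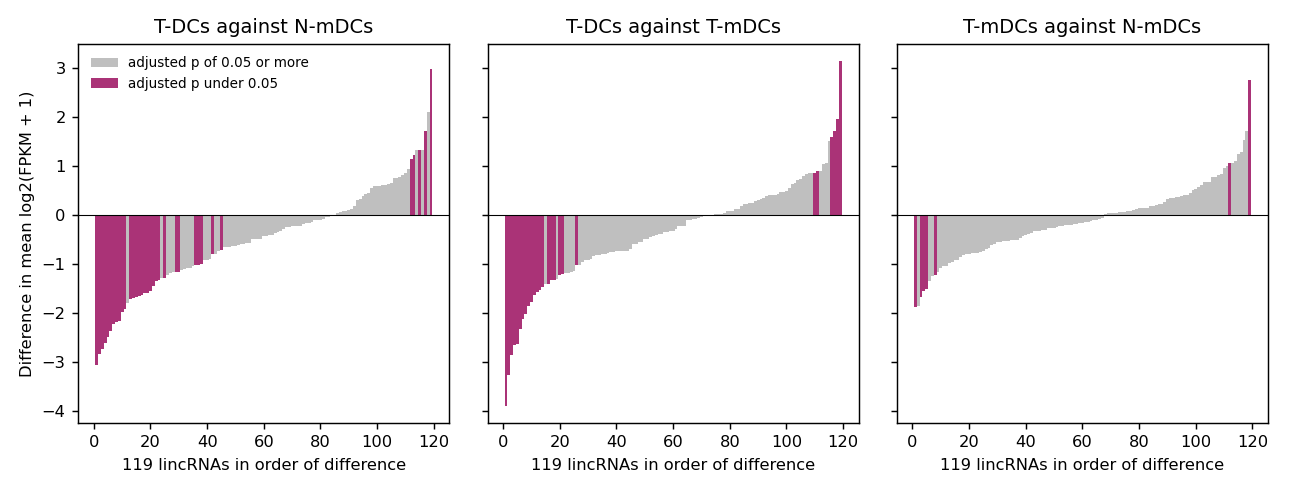
Differences in mean log2(FPKM + 1) of the 119 lincRNAs in each comparison, each panel in its own order from lowest to highest. Coloured bars mark the members with an adjusted p under 0.05, which lie mostly at the negative end in both T-DC panels (30 of 35 and 20 of 26).

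The lincRNAs with the largest decreases in T-DCs against N-mDCs, among called members whose libraries did not overlap, were Gm34084, Ptgs2os2, Gm20506, Gm32633 and Gm47922. All but Gm32633 had passed the level threshold without any T-DC library, so part of their difference was built into their choice. Gm34084 (chromosome 13, 44472426 to 44504548, minus strand), 224926 bases from its nearest coding gene Jarid2, was at 24.2, 17.9 and 10.5 FPKM in N-mDCs, 1.46, 1.14 and 0.761 in T-DCs and 4.53, 5.42 and 5.19 in T-mDCs. The 3 groups did not overlap. Its log2 fold change was -3.07 against N-mDCs (standard error 0.28, adjusted p = 0.000696) and -1.52 against T-mDCs (0.28, adjusted p = 0.0105), and T-mDCs were lower than N-mDCs by -1.54 (adjusted p = 0.0316). Of these, the call against N-mDCs held in all 20 alternatives. The losses given here and below are for fits that left out 1 library, unless another alternative is named. Calls lost in such fits could also be lost in other alternatives, at a higher adjusted p. The call against T-mDCs was lost without T-mDC 2 or T-mDC 3 (adjusted p up to 0.0554). The call between T-mDCs and N-mDCs was lost without N-mDC 1, N-mDC 2, T-DC 2 or any T-mDC library (up to 0.131).

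Ptgs2os2 (chromosome 1, 150159043 to 150164948, minus strand) lies 50816 bases from Ptgs2, which encodes cyclooxygenase-2. It was at 10.6, 7.65 and 7.16 FPKM in N-mDCs, 0.576, 0.185 and 0.189 in T-DCs and 2.31, 4.57 and 4.83 in T-mDCs, and the T-DC libraries lay below the rest. The log2 fold change was -2.84 against N-mDCs (standard error 0.26, adjusted p = 0.000696) and -1.86 against T-mDCs (adjusted p = 0.00372), of which the second was lost with T-DC 1 as the only T-DC library (0.0558). Gm32633 (chromosome 7, 64001885 to 64020959), 62970 bases from its nearest coding gene Klf13, was at 29.0, 23.3 and 19.5 FPKM in N-mDCs, 2.33, 5.47 and 2.10 in T-DCs and 4.63, 7.19 and 8.91 in T-mDCs. Its N-mDC libraries stood above all libraries from leukemic mice. It was lower in T-DCs than N-mDCs by -2.60 (standard error 0.33, adjusted p = 0.00207), a call that every alternative kept. T-mDCs were lower than N-mDCs by -1.68 (adjusted p = 0.0422), a call lost without any single N-mDC or T-mDC library (up to 0.154).

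Gm47922 (chromosome 10, 78121433 to 78138097, minus strand) was lowest in T-DCs, at 0.290, 0.0670 and 0.274 FPKM, against 8.43, 3.93 and 5.55 in N-mDCs and 5.94, 13.4 and 14.7 in T-mDCs. The log2 fold changes of T-DCs were -2.48 against N-mDCs (standard error 0.34, adjusted p = 0.00313) and -3.27 against T-mDCs (adjusted p = 0.00177). No leave-one-out fit lost either call, and with T-DC 1 as the only T-DC library the first had an adjusted p of 0.0527.

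Gpr141b (chromosome 13, 19727426 to 19732951, minus strand) had the largest decrease in T-DCs against T-mDCs. It was at 36.7, 16.5 and 19.9 FPKM in N-mDCs, 12.4, 2.71 and 2.07 in T-DCs and 49.2, 99.8 and 96.7 in T-mDCs, and no groups overlapped. T-DC 1 was the highest T-DC library and T-mDC 1 the lowest T-mDC library. The log2 fold change was -3.89 against T-mDCs (standard error 0.57, adjusted p = 0.00415), kept in all 20 alternatives, and -2.17 against N-mDCs (adjusted p = 0.0351), lost without any N-mDC library, T-DC 2, T-DC 3, T-mDC 2 or T-mDC 3 (up to 0.117). In all, the call against N-mDCs was lost in 13 of the 20 alternatives, among them no filter, TPM and the replicate block. Its coding neighbour Gpr141, 16731 bases away on the same strand, did not pass the test in either contrast. Gpr141b counts as a lincRNA by its annotated biotype, and whether the row codes for protein was not examined. 2310031A07Rik, of whose exons 61.5% overlap those of Med7 on the opposite strand, was at 2.42, 0.326 and 0.865 FPKM in T-DCs and 7.38, 14.9 and 14.4 in T-mDCs (log2 fold change -2.64, standard error 0.43, adjusted p = 0.0065). The strand of the libraries is not stated, so reads of the 2 genes cannot be told apart there.

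Of the microRNA hosts, Mir155hg was lowest in T-DCs. It was at 2.72, 1.69 and 3.57 FPKM in N-mDCs, 0, 0.0901 and 0 in T-DCs and 0.998, 10.6 and 10.2 in T-mDCs. Mir155hg had passed the level threshold without any T-DC library, so part of its lower T-DC level was built into its choice. The 3 T-DC libraries held 2 reads of it in all, against 193 in N-mDCs and 590 in T-mDCs, so the T-mDC level was 253 times the T-DC level (95% exact interval 69.8 to 2100, counting error only). On the log2(FPKM + 1) scale the difference from T-mDCs was -2.63 (standard error 0.60, adjusted p = 0.0239), lost without T-DC 2, T-DC 3, T-mDC 2 or T-mDC 3 (up to 0.101). The difference from N-mDCs, -1.80, had an adjusted p of 0.0736. T-mDC 1 lay below the N-mDC libraries and T-mDC 2 and 3 above them.

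Mir142hg, the host of the leukocyte microRNA miR-142, was at 65.1, 88.7 and 51.2 FPKM in N-mDCs, 42.1, 37.4 and 34.5 in T-DCs and 24.0, 24.4 and 20.2 in T-mDCs. The order was N-mDCs, T-DCs, T-mDCs, with no overlap between neighbours in it. T-mDCs were lower than N-mDCs by -1.51 (standard error 0.22, adjusted p = 0.0158), lost without T-mDC 2 or T-mDC 3 (up to 0.0973) and in TPM (0.0515). T-DCs were lower than N-mDCs by -0.80 (adjusted p = 0.0408), lost without N-mDC 1, N-mDC 2, T-DC 2, T-DC 3 or any T-mDC library (up to 0.115), and the difference between T-DCs and T-mDCs had an adjusted p of 0.065. The call of T-DCs against N-mDCs was lost in 13 of the 20 alternatives in all, among them no filter and voom. Mir17hg, the host of the miR-17 to miR-92 cluster that is known for its role in proliferating cells, was at 1.62 to 2.32 FPKM in N-mDCs, 0.900, 2.59 and 3.43 in T-DCs and 1.12 to 2.08 among T-mDCs. T-DC 2 and 3, which had the highest cell cycle sums, were its highest libraries, and no contrast passed the test. Mirt1 was listed with the microRNA hosts but holds no microRNA gene in this annotation. The FPKM of a host transcript does not measure the mature microRNA.

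A230098N10Rik (chromosome 5, 29996141 to 30008798, minus strand) stood highest in T-mDCs. It was at 6.48, 7.11 and 7.82 FPKM there, against 0.412, 0 and 0.236 in N-mDCs and 0, 0.415 and 0 in T-DCs. Its log2 fold change was 2.75 for T-mDCs against N-mDCs (standard error 0.21, adjusted p = 0.00218) and -2.85 for T-DCs against T-mDCs (adjusted p = 0.000955). It is 1 of the members that passed the level threshold only through the T-mDC libraries, so a difference was built into its choice. Both calls held in all 20 alternatives. Gm47713, the other such member, was at 2.61, 2.15 and 2.35 FPKM in T-mDCs, 0.985, 0.479 and 0.424 in N-mDCs and 0.258, 0 and 0 in T-DCs. It was higher in T-mDCs than in N-mDCs by 1.06 (adjusted p = 0.0306), a call lost without N-mDC 2, N-mDC 3, T-DC 2 or any T-mDC library (up to 0.139). Its body overlaps that of the member Gm36723 on the opposite strand, which averaged 4.77 FPKM in T-mDCs, 1.93 in N-mDCs and 0.443 in T-DCs. The strand of the libraries is not stated, so reads from any shared bases cannot be told apart.

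Among the lincRNAs that separated healthy from leukemic mice, Gm5547 (chromosome 3, 105815540 to 105817357) was measured at 47.2, 62.5 and 48.4 FPKM in N-mDCs, 17.4, 11.5 and 5.45 in T-DCs and 10.6, 16 and 14.8 in T-mDCs. All N-mDC libraries stood above all others, and T-DCs and T-mDCs overlapped. The B cell, NK cell and pDC marker sums separated the N-mDC libraries in the same way, and their part in such values was not tested. T-DCs were lower than N-mDCs by -2.22 (standard error 0.36, adjusted p = 0.00577), kept in all 20 alternatives. T-mDCs were lower by -1.87 (adjusted p = 0.0399), lost without any N-mDC or T-mDC library or T-DC 2 (up to 0.152). Gm33104 was at 2.59, 2.57 and 2.47 FPKM in N-mDCs, 0.145, 0.111 and 0.0568 in T-DCs and 0.0914, 0.625 and 0.938 in T-mDCs, and had passed the level threshold only through N-mDCs. The log2 fold change was -1.68 for T-DCs (standard error 0.22, adjusted p = 0.00228), kept in every alternative that tested it, and -1.23 for T-mDCs (adjusted p = 0.0286), lost without any N-mDC library, T-DC 2, T-mDC 2 or T-mDC 3 (up to 0.117). Gm12159 had no read in any T-DC library, against 3.67, 2.06 and 2.82 FPKM in N-mDCs and 0.183, 1.97 and 2.33 in T-mDCs. It did not separate healthy from leukemic mice, since N-mDCs and T-mDCs overlapped (limma adjusted p = 0.354). T-mDC 1 to 3 held 5, 55 and 62 reads of it. Set against a floor of 3 reads over the 3 T-DC libraries, Gm12159 was at least 66.6-fold lower in T-DCs than N-mDCs and at least 34.9-fold lower than in T-mDCs, with the libraries of a group pooled. The limma test called the first difference (adjusted p = 0.011) but not the second (adjusted p = 0.0658). Gm12159 had passed the level threshold without any T-DC library, so part of both differences was built into its choice.

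The members that were higher in T-DCs were fewer. Gm11707 (chromosome 11, 106972058 to 106973090, minus strand) was measured at 26.8, 11.2 and 14.5 FPKM in T-DCs, 0.783, 1.52 and 1.35 in N-mDCs and 4.76, 0 and 0.333 in T-mDCs. The log2 fold change was 2.99 against N-mDCs (standard error 0.61, adjusted p = 0.0138) and 3.14 against T-mDCs (adjusted p = 0.0124). The first call was lost without N-mDC 1 (0.0538) and the second without T-mDC 2 or T-mDC 3 (up to 0.0623). In all, 3 of the 20 alternatives lost the first call, among them a pseudocount of 0.1, and 5 lost the second. Gm11707 was highest in T-DC 1, the T-DC library with the least erythroid and cell cycle RNA and the most monocyte and red pulp macrophage RNA.

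Gm36161 (chromosome 13, 120010390 to 120018931) was measured at 65.7, 37.9 and 27.5 FPKM in T-DCs, 9.37 to 14.6 in N-mDCs and 22.7, 6.89 and 5.84 in T-mDCs. The whole transcript matched Gm21188 at 96.4% identity, so the reads of the 2 genes may have been split. Its log2 fold changes were 1.72 (standard error 0.49, adjusted p = 0.0451) and 1.95 (adjusted p = 0.0322). The first was lost without any single N-mDC or T-DC library, T-mDC 2 or T-mDC 3 (up to 0.134), and the second without N-mDC 2, N-mDC 3, T-DC 2, T-mDC 2 or T-mDC 3 (up to 0.132). Gm14321 (chromosome 2, 167777467 to 167782569), whose promoter is printed above, was at 7.34, 3.94 and 5.26 FPKM in T-DCs, 2.10, 1.39 and 1.23 in N-mDCs and 1.18, 0.850 and 0.830 in T-mDCs. It was higher by 1.32 (standard error 0.23, adjusted p = 0.00757) and 1.71 (adjusted p = 0.00307), and both calls held in every alternative that tested it.

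1700020I14Rik, which RefSeq names Oip5os1 or Cyrano, was at 14.0, 26.7 and 22.6 FPKM in T-DCs and at 6.37 to 10.3 in N-mDCs (log2 fold change 1.22, standard error 0.26, adjusted p = 0.0157), lost without N-mDC 3, T-DC 2 or T-DC 3 (up to 0.0587). In all, 5 of the 20 alternatives lost this call, among them the fit of 2 groups. Gm17275, of whose exons 25% overlap those of the histone gene H3f3a on the opposite strand, was at 3.83, 6.83 and 5.04 FPKM against 2.56, 1.34 and 1.56 (1.14, adjusted p = 0.0221), lost without N-mDC 2, N-mDC 3, T-DC 2 or T-DC 3 (up to 0.0786). Gm28875 was at 6.39, 8.36 and 8.20 FPKM in T-DCs against 1.92, 1.61 and 2.01 in T-mDCs (1.60, standard error 0.32, adjusted p = 0.0136), lost without T-DC 2, T-mDC 2 or T-mDC 3 (up to 0.0666). The T-DC libraries lay above those they were compared with in all 3 lincRNAs.

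**Figure D3:**
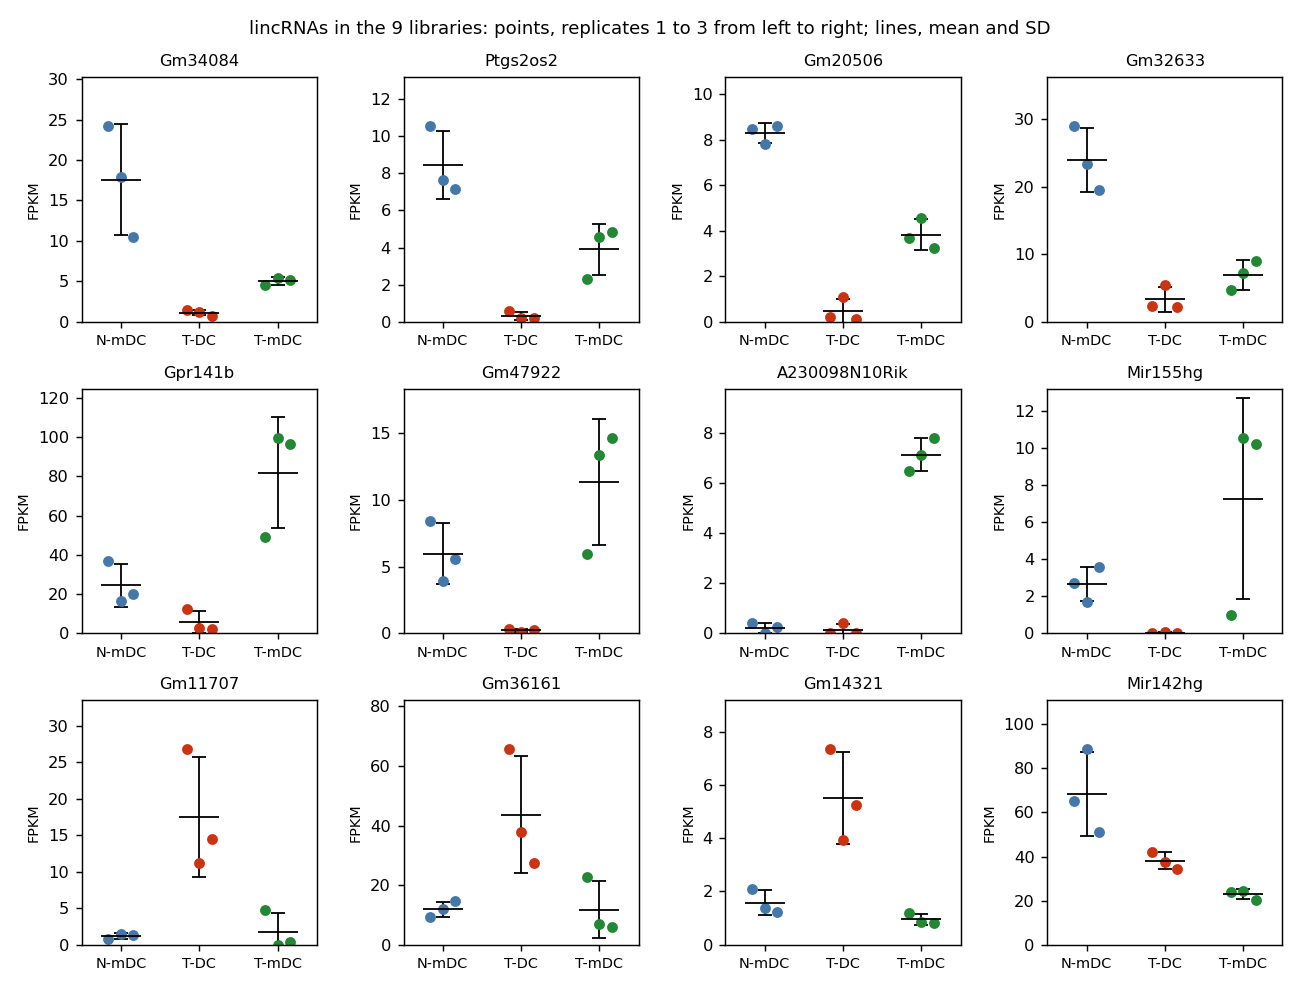
FPKM of 12 lincRNAs in the 9 libraries, with replicates 1 to 3 from left to right within a group, the mean as a bar and the SD (n = 3) as whiskers, cut at 0. The T-DC points lie lowest in the upper 2 rows except for Gm32633, where T-DCs and T-mDCs overlap, and A230098N10Rik, where T-DCs and N-mDCs are both near 0, and they lie highest for Gm11707, Gm36161 and Gm14321.

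Of the members on the list named nuclear lncRNAs, 3 passed no contrast and Neat1 passed 1. The name is a label of the list, and where these RNAs lie in the cell was not measured. Malat1, a component of nuclear speckles, was at 28.9 to 77 FPKM in N-mDCs, 50.4 to 73.7 among T-DCs and 47.6 to 60.4 among T-mDCs. Neat1, the scaffold of paraspeckles, was at 16.8, 12.4 and 8.69 FPKM in N-mDCs, 17.9, 19.3 and 12.3 in T-DCs and 7.86, 8.35 and 8.49 in T-mDCs. Neat1 was higher in T-DCs than in T-mDCs by 0.90 (standard error 0.25, adjusted p = 0.0467), and this was lost without N-mDC 2, T-DC 2 or any T-mDC library (up to 0.154) and in TPM (0.208). The call of Neat1 was lost in 12 of the 20 alternatives in all, among them no filter, quantile normalization and the replicate block. Neat1 also missed the threshold in the comparison of all 3 groups (limma F-test, adjusted p = 0.079). Xist, which silences an X chromosome in females, was at 11.6 to 37.2 FPKM in every library. The steadiest member was 2900097C17Rik, known as Norad, at 29.1 to 45.4 FPKM in the 9 libraries with a coefficient of variation of 13.9%. A copy, Gm7292, covers 51.6% of its length at 99.2% identity.

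The lists below are short, and 10.3% of all genes were lower in T-DCs against N-mDCs, 8.79% against T-mDCs and 1.52% in T-mDCs against N-mDCs, so nothing is read from a single call. The names of the lists are labels, and the location or role of each gene was not examined here. Of the 7 lncRNAs tested from the list named nuclear, including 3 that are no members, 1 was higher in T-DCs than in T-mDCs and none was called otherwise (limma). The 4 snoRNA hosts among the members, Epb41l4aos, Snhg6, Snhg12 and Snhg20, passed no contrast. Snhg6 was at 14.8 to 28.0 FPKM over all libraries and Snhg12 at 5.93 to 15.1 FPKM. Of the 14 snoRNA hosts tested in all, 1 was lower in T-DCs than in each other group. It was Snhg15, of another biotype, which averaged 53.0 ± 10.8 FPKM (SD, n = 3) among N-mDCs, and 15.8 ± 3.42 among T-DCs. Of the 6 microRNA hosts tested, 1 was lower in T-DCs than N-mDCs, 1 lower in T-DCs than in T-mDCs and 1 lower in T-mDCs than in N-mDCs. Of the 7 immune lncRNAs tested, 1 was lower in T-DCs than N-mDCs (Ptgs2os2), 1 was higher (1700020I14Rik) and 2 were lower than in T-mDCs (Ptgs2os2 and Gm16685, which is no member).

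By position, 99 members lay apart from every coding gene and 20 overlapped the body of 1. Of those apart, 23 were divergent from their nearest coding gene, 21 convergent and 55 on the same strand, with a median gap of 15539 bases. Of the 119 nearest coding genes, counted once for each member, 96 were themselves tested. Over these 96 pairs, Pearson's r between the log2 fold changes of the lincRNA and of the coding gene was 0.51 (Spearman's rho 0.48) for T-DCs against N-mDCs and 0.48 (0.52) for T-DCs against T-mDCs. For T-mDCs against N-mDCs r was 0.45 (0.48). In the T-DC contrasts r was 0.55 and 0.44 for the 13 pairs with overlapping bodies, 0.68 and 0.62 for the 36 pairs 1 to 10000 bases apart, and 0.37 and 0.40 for the 47 pairs farther apart. For T-mDCs against N-mDCs r was 0.06, 0.66 and 0.33 in the same sets of pairs. These are descriptions across genes that share all libraries, and pairs are not independent replicates. Of the 30 called members with a tested neighbour in the first contrast, 10 had a neighbour called in the same direction and none had one called in the opposite direction, and in the second contrast 10 of 22 did so and none went against it. Over all genes tested, 10.3% were called lower and 6.1% higher in the first contrast, and 8.79% and 5.44% in the second.

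Of the pairs whose bodies do not overlap and in which both genes were called in the same direction, the closest was Gm20513 and H2-Eb1, which encodes an MHCII beta chain. Their 5′ ends face away from each other, with 156 bases between them. Gm20513 (chromosome 17, 34293073 to 34305720, minus strand) is listed as antisense in GENCODE M21. The RefSeq promoter window of H2-Eb1 (GRCm38.p6, chr17:34305617-34305916, plus strand) holds all of the bases between the 2 ends, which are in capitals.
H2-Eb1 and Gm20513: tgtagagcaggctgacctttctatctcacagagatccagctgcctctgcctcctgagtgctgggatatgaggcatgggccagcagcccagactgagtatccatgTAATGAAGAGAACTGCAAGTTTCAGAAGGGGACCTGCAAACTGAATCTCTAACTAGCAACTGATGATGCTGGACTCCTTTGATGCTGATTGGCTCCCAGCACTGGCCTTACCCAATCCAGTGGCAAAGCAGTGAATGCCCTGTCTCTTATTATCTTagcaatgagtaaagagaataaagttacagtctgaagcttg

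Gm20513 was at 5.24, 2.89 and 4.92 FPKM in N-mDCs, 0.624, 0.481 and 0 in T-DCs and 0.888, 4.24 and 4.05 in T-mDCs. H2-Eb1 was at 7770, 7308 and 5559 FPKM, at 576, 295 and 124 FPKM and at 3209, 4757 and 4793 FPKM in the same libraries. T-DC 3 was the lowest T-DC library and T-mDC 1 the lowest T-mDC library for both genes. Gm20513 was lower in T-DCs by -1.97 against N-mDCs (standard error 0.41, adjusted p = 0.0152), lost without N-mDC 1, N-mDC 3 or T-DC 3 (up to 0.0588), and by -1.46 against T-mDCs (adjusted p = 0.0475), lost without any N-mDC library, T-DC 2, T-DC 3, T-mDC 2 or T-mDC 3 (up to 0.18). Gm20506, 3150 bases from H2-Ob on the same chromosome, was at 8.47, 7.80 and 8.60 FPKM in N-mDCs, 0.190, 1.10 and 0.112 in T-DCs and 3.69, 4.57 and 3.23 in T-mDCs. No groups overlapped, and it was lower in T-DCs by -2.72 (standard error 0.25, adjusted p = 0.000696) and -1.77 (adjusted p = 0.00379), both kept in all 20 alternatives. H2-Ob, which encodes a chain of the MHCII-loading regulator H2-O, was at 98.0 to 154 FPKM in N-mDCs, 3.38 to 11.7 among T-DCs and 39.0 to 54.7 among T-mDCs. Both coding genes belong to the locus by whose product the groups were sorted. Gm20513 and Gm20506 had passed the level threshold without any T-DC library, so part of their lower T-DC levels was built into their choice.

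Beside genes of the inflammatory response, Ptgs2 was at 41.7 to 92.5 FPKM in N-mDCs, 0.662 to 3.27 among T-DCs and 31.1 to 45.1 among T-mDCs, and both Ptgs2 and Ptgs2os2 were lower in T-DCs than in both groups (Ptgs2 against N-mDCs, log2 fold change -4.49, adjusted p = 0.000639). Il6, the interleukin-6 gene that A230098N10Rik faces away from at a distance of 4316 bases, was at 12.4, 14.6 and 14.3 FPKM in T-mDCs, 1.61, 1.69 and 5.26 in N-mDCs and 0.897, 1.12 and 0.298 in T-DCs. Like the lincRNA, it was higher in T-mDCs than in N-mDCs (2.06, adjusted p = 0.0243) and lower in T-DCs than in T-mDCs (-3.09, adjusted p = 0.00197). Atf3, which encodes a stress-induced transcription factor, was at 895 to 966 FPKM in N-mDCs and 15.2 to 77.1 in T-DCs. Its divergent neighbour D730003I15Rik was at 2.96, 3.42 and 1.96 FPKM in N-mDCs and 1.22, 0.459 and 0.429 in T-DCs (-1.16, standard error 0.26, adjusted p = 0.019), lost without N-mDC 1, N-mDC 2, T-DC 2 or T-DC 3 (up to 0.0713). T-DC 1 was the highest T-DC library for both genes. Ptgs2os2, A230098N10Rik and D730003I15Rik had each passed the level threshold without any T-DC library, so part of their lower T-DC levels was built into their choice.

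Pairs in which both genes were called higher in T-DCs were Gm11707 with Kpna2, an importin gene, in both contrasts, Gm28875 with Syne3, a gene of the nuclear envelope, against T-mDCs, and the overlapping Gm17275 with H3f3a against N-mDCs (H3f3a, log2 fold change 1.07, adjusted p = 0.0454). Kpna2 was at 46.9, 94.8 and 123.1 FPKM in T-DCs, 16 to 17.6 in N-mDCs and 26.4 to 32.3 in T-mDCs. Within T-DCs the order differed, since T-DC 1 was lowest for Kpna2 and highest for Gm11707. For Gm32633 and Klf13, which encodes a transcription factor, the values went opposite ways between T-DCs and T-mDCs: the lincRNA differed by -0.93 (adjusted p = 0.0961) and Klf13 was higher by 1.46 (adjusted p = 0.0232).

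**Figure D4:**
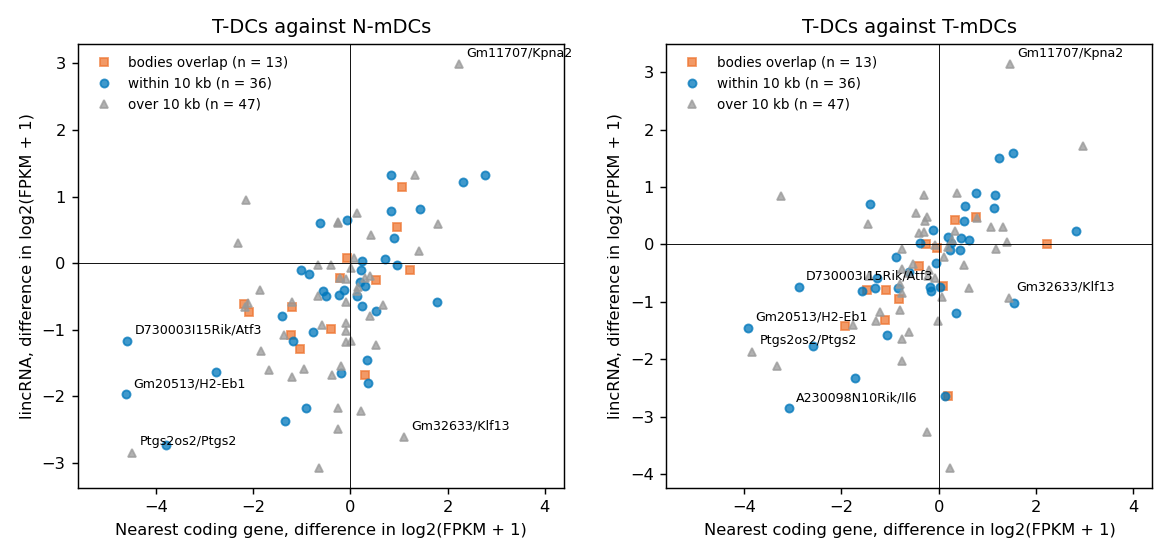
Difference of each lincRNA against that of its nearest coding gene, both in mean log2(FPKM + 1), for the 96 pairs in which the coding gene was tested. Symbols give the gap between the gene bodies, and r was 0.51 in the left panel and 0.48 in the right one.

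**Figure D5:**
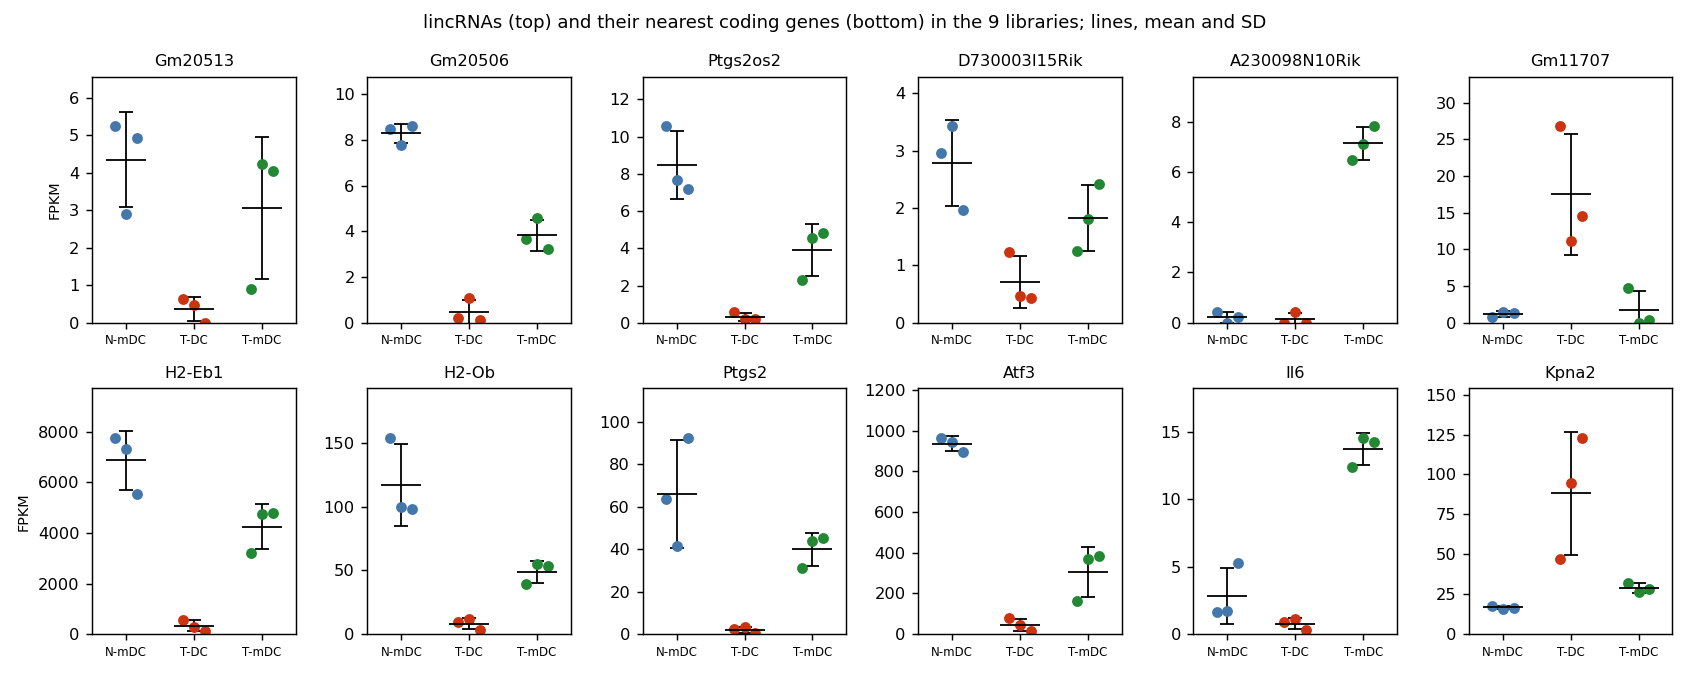
FPKM of 6 lincRNAs (top) and their nearest coding genes (bottom) by library, with replicates 1 to 3 from left to right, the mean as a bar and the SD (n = 3) as whiskers, cut at 0. T-DC libraries lie lowest in both rows of the 4 leftmost pairs, T-mDCs highest for A230098N10Rik and Il6, and T-DCs highest for Gm11707 and Kpna2.

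In 77 of the 119 members the highest T-DC library was over 2 times the lowest. In 11 members both T-DC 2 and T-DC 3 were above 2 times T-DC 1, and in 26 members T-DC 1 was above 2 times each of them. Gm42047, 64.2% of whose length matched Gm48362 at 98.4% identity, was at 6.09, 78.2 and 45.1 FPKM in T-DC 1 to 3, against 3.68 to 9.84 in N-mDCs and 9.42 to 16.2 in T-mDCs. The row named Lsmem2 was at 0.454, 4.90 and 4.46 FPKM, against 0 to 0.746 in N-mDCs and 1.54 to 2.58 in T-mDCs. Its neighbour Ifrd2 was at 9.93, 146 and 156 FPKM, against 5.92 to 12.5 FPKM in the other groups. Gm43904 was at 0, 9.87 and 5.56 FPKM in T-DC 1 to 3, beside the platelet glycoprotein gene Gp9 at 0, 6.88 and 9.05 FPKM. In the opposite direction, Gm13710 was at 16.7, 2.07 and 2.46 FPKM in T-DC 1 to 3 and at 2.14 to 12.0 FPKM elsewhere. T-DC 2 and 3 were also the libraries with the high erythroid, cell cycle and neutrophil sums. T-DC 1 was the T-DC library with the highest monocyte and red pulp macrophage sums. The part of all those cells in these values was not tested.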

How the data were processed

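RNA was isolated with the RNeasy Mini kit and sequenced by a standard Illumina protocol. FPKM values per gene were computed and deposited by the authors, on mm10 per the labels. The aligner, the counter, the annotation release and the strand setting are not given in the sources used here. Whole reads were recovered from the FPKM steps and gene lengths, the farthest from a whole number by 6.55e-05 reads, and serve for depth and counting intervals, which cover counting error only.

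The main test was limma 3.58.1 (R 4.3.3) with a mean-variance trend on log2(FPKM + 1), in 1 fit of all 9 libraries and 12746 genes with at least 1 FPKM in at least 3 libraries. P-values were adjusted by Benjamini-Hochberg over all these genes, with a threshold of 0.05. All 119 members passed this filter. The code was run on simulated counts that had the same relative spread for all genes and groups, unlike these libraries. That run says nothing on how the fit handles the spread found here. Copies were found with blastn 2.17.0 (at least 95% identity over 50% of the length). Positions and sequences came from GENCODE M21 and RefSeq GRCm38.p6.

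Named are the 5 highest members, the 5 largest called increases and decreases per comparison among members whose libraries did not overlap, members of the lists, and those at the threshold. Neighbours and the members that differed among T-DC libraries were described after their values were seen. Listed names without a row were looked up among RefSeq synonyms, and each row was counted once. The members and lists were chosen with earlier results of these data known. Alternatives were another pseudocount, other filters, quantile normalization, TPM, no trend, voom on recovered reads, the mean of T-mDC 2 and 3, a replicate block, fits of 2 groups and each library left out.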

Additional observations from a re-analysis of the deposited data

How the results depend on the processing

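Counts of called members are given in a fixed order: first among the 3 groups, then for T-DCs set against N-mDCs, next for T-DCs set against T-mDCs, and last for T-mDCs set against N-mDCs. The main counts were 41, 35, 26 and 7, and the shares of all genes called were 18%, 16.4%, 14.2% and 2.21%. With no filter on low values they were 21, 21, 17 and 2 (all genes 5.86%, 5.16%, 4.43% and 0.963%), and with a stricter filter, which left 46 members, 18, 15, 12 and 4 (all genes 18.2%, 17.9%, 14.7% and 1.37%). With the mean of T-mDC 2 and 3 as 1 library they were 24, 26, 13 and 1 (all genes 8.49%, 10.9%, 4.24% and 0.18%). With T-DC 1 as the only T-DC library, assumed to vary like the other groups and chosen after seeing the data, they were 25, 10, 11 and 18 (all genes 11.5%, 5.85%, 5.81% and 6.66%). Leaving out 1 library at a time gave 22 to 68, 17 to 60, 12 to 50 and 1 to 20, each highest without T-DC 1 (all genes then 42.2%, 39.5%, 35.1% and 8.02%). T-mDCs differed from N-mDCs in 2 members with a pseudocount of 0.1, in 1 in TPM and in 18 when these 2 groups were fitted alone (all genes 0.839%, 0.777% and 6.67%). TPM moved the share of higher calls over all genes from 38.2% to 21.9% for T-DCs against T-mDCs and from 31.2% to 49.5% for T-mDCs against N-mDCs. With the replicate number as a block the counts were 24, 27, 20 and 2 (all genes 10.5%, 10.8%, 9.83% and 0.612%), but deviations of same-numbered libraries correlated between -0.47 and 0.27, so neither the labels nor these values show a pairing, and whether T-DC and T-mDC libraries share mice is not known. Of 1324 recomputed differences of called members, 958 stayed past the threshold, 366 did not and 0 changed direction. The cause was not tested. With 3 libraries per group, and the T-DC libraries unlike each other, members that passed no test are not shown to be equal.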
